A study of Mus musculus with 2 samples.

Results

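Inflammatory chemokine receptors were followed across the leukocytes of the mouse omentum, the fold of abdominal fat that carries the lymphoid clusters called milky spots. The 9 genes, *Ccr1*, *Ccr2*, *Ccr4*, *Ccr8*, *Cx3cr1*, *Cxcr2*, *Cxcr3*, *Cxcr6* and *Xcr1*, were taken by symbol from the 19960 genes listed, and each was found once. They were measured by droplet single-cell RNA sequencing in a WT and a *Postn*-DTR library, 2 in all, from mice given diphtheria toxin (DT) 5 days earlier. The DTR animals are heterozygous for a DT receptor placed in the *Postn* gene, so that DT removes stromal cells that use this promoter. Only 26 WT and 6 *Postn*-DTR cells carried stromal markers, too few to check that removal here. Each library pools several mice, so there was no replicate, no test between groups and no p-value. Every interval below is a 95% interval that covers counting error only.

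Chemokine receptors are G protein-coupled receptors that steer leukocytes along gradients of small secreted proteins, the chemokines. The inflammatory receptors, unlike those that bring naive lymphocytes into lymphoid tissue, are carried by effector lymphocytes and myeloid cells and bind chemokines made at inflamed sites. Most of them share ligands. CCR1 binds CCL3 and CCL5 among others, CCR2 binds CCL2, CCL7 and CCL12, CCR4 binds CCL17 and CCL22, CCR8 binds CCL1, CXCR2 binds CXCL1 and CXCL2, and CXCR3 binds CXCL9 and CXCL10. CX3CR1, CXCR6 and XCR1 have the ligands CX3CL1, CXCL16 and XCL1.

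Of 8654 WT and 5727 *Postn*-DTR cells kept, 4739 and 2208 belonged to the T, NK, innate lymphoid (ILC) and myeloid classes. The libraries held 80152228 and 81010680 unique molecular identifiers (UMIs), each UMI standing for 1 captured transcript, and they shared 65 barcodes. Classes were set cell by cell from the detection of marker genes, none of them a receptor studied here. A class name below means cells that carry those markers or, for some T cell classes, lack others. In 27 of the 28 class and library pairs examined, every marker listed was at least 2-fold above the other cells, and in *Postn*-DTR monocytes 8 of 9 were. Since the classes were set by these same markers, that is no independent check of the class names. Naive and other CD4 T, CD8 T and unassigned T cells were not among the pairs. Levels below are averages, over the cells of a class, of a gene's UMIs per 10000 UMIs of the cell. A ratio of *Postn*-DTR over WT was formed for a gene with at least 30 UMIs in a class with at least 20 cells in each library, and the interval beside it is that of the ratio of summed UMIs. Median depth was 9686 UMIs per cell in WT and 3288 in *Postn*-DTR mature neutrophils and 6156 and 2999 in C1q macrophages, the largest gaps by ratio among the classes compared. The share of cells with a UMI is therefore given after each cell was thinned to 1000 UMIs.

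Most receptors were concentrated in few classes. *Ccr1* and *Cxcr2* were highest in mature neutrophils, *Ccr2* and *Cx3cr1* in monocytes, *Ccr4* in regulatory T (Treg) cells and *Ccr8* in ILC2. *Cxcr3* was highest in CD4 T cells typed as neither naive nor Treg (non-naive CD4 T cells below), and *Cxcr6* in γδ T cells of the IL-17 type. The non-naive CD4 class was set by a *Cd4* UMI, no *Foxp3* UMI and too few naive genes detected. Naive or Treg cells whose markers were missed can therefore lie in it. *Xcr1* was highest in type 1 dendritic cells (cDC1) in WT. Of its UMIs in typed cells, 906 of 954 lay there in WT and 32 of 34 in *Postn*-DTR. *Cxcr2* was confined as tightly: mature neutrophils, immature neutrophils and granulocyte precursors held 99.2% of its WT and 98.5% of its *Postn*-DTR UMIs in typed cells. In WT *Ccr2* had the lowest share in its leading class, with 20.3% of its UMIs in monocytes, 14.6% in γδ T cells and 16.4% in dendritic cells. The map of levels by class and the plot of UMI holders show both arrangements.

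**Figure D1:**
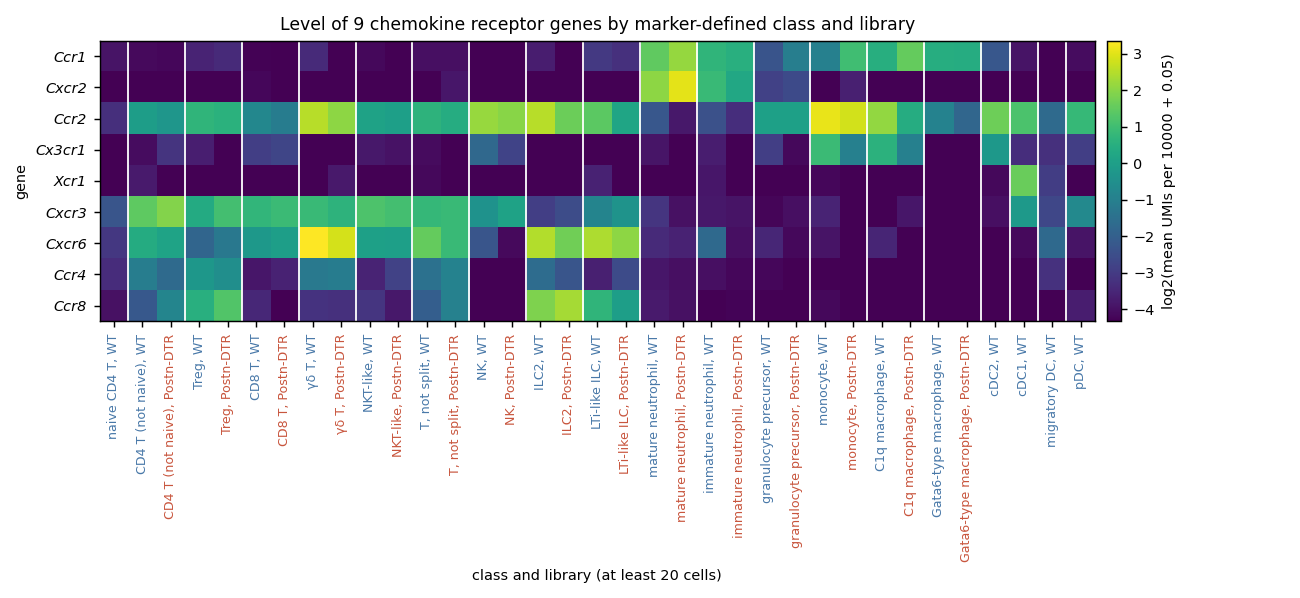
Level of the 9 receptor genes (rows) in each marker-defined class and library with at least 20 cells (columns, WT in blue and *Postn*-DTR in red), as log2 of the mean UMIs per 10000 plus 0.05. *Cxcr2* is bright only in the neutrophil columns and *Xcr1* only in cDC1, whereas *Ccr2* is bright in monocytes, γδ T, NK and ILC2 columns alike. Colours are meant to be compared along a row and not between genes.

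**Figure D2:**
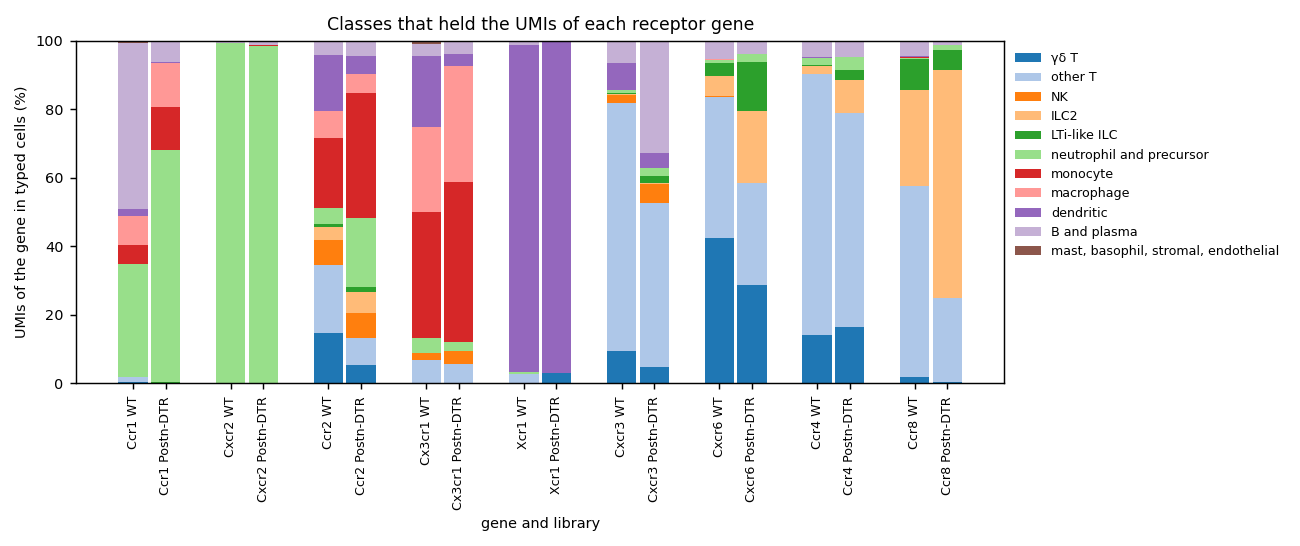
Share of each gene's UMIs in typed cells (y axis, percent) held by groups of classes, 1 bar per gene and library. In WT, B and plasma cells hold 48.5% of the *Ccr1* UMIs, and in *Postn*-DTR the neutrophil classes hold 67.7% of them.

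Of the 9 genes, 7 lie on chromosome 9 (GRCm38, GENCODE annotation, 1-based). *Cxcr6* (ENSMUSG00000048521, 123806475 to 123811760, + strand), *Xcr1* (ENSMUSG00000060509, 123852315 to 123862029, - strand), *Ccr1* (ENSMUSG00000025804, 123962124 to 123968692, - strand) and *Ccr2* (ENSMUSG00000049103, 124101950 to 124113557, + strand) sit within 307083 bases of each other. *Cx3cr1* (ENSMUSG00000052336, 119901616 to 120069879, - strand) and *Ccr8* (ENSMUSG00000042262, 120092114 to 120094906, + strand) are neighbours at lower coordinates, and *Ccr4* (ENSMUSG00000047898) starts at 114490316. *Cxcr2* (ENSMUSG00000026180) lies on chromosome 1 at 74153989 to 74161246 and *Cxcr3* (ENSMUSG00000050232) on chromosome X at 101731535 to 101734269. The *Cxcr6* gene lies inside *Fyco1*, which is on the other strand, and the annotated *Cx3cr1* gene spans other genes, among them *Gorasp1*, *Csrnp1* and *Xirp1* on its own strand. How the counting assigned reads in those stretches is not given in the sources used here, so values of *Cxcr6* and *Cx3cr1* carry that uncertainty.

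The bases just before the annotated starts of 3 neighbours in the chromosome 9 cluster are shown, because these genes lie side by side and were highest in different cells, *Cxcr6* in γδ T cells, *Xcr1* in cDC1 and *Ccr1* in mature neutrophils. They are RefSeq promoter sequence of GRCm38.p6, written 5′ to 3′ along each gene's own strand and trimmed to stretches outside annotated exons, at chr9:123806357-123806474 (+ strand), chr9:123862030-123862149 (- strand) and chr9:123968693-123968812 (- strand). Capitals mark ACCACA, the reverse complement of the Runx-type motif TGTGGT.

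*Cxcr6*: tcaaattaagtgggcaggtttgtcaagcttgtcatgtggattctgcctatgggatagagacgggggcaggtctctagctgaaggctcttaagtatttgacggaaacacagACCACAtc

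*Xcr1*: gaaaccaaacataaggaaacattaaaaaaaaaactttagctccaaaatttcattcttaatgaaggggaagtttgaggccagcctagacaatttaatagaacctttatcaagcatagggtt

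*Ccr1*: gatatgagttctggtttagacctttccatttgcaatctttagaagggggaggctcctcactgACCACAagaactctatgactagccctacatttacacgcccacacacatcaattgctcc

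Besides TGTGGT, other motifs were searched on both strands, but TGTGGT alone was matched in these 3 stretches, once each before *Cxcr6* and *Ccr1*. It occurs on either strand in 14.1% of 32851 windows of 250 bases before annotated starts. Among the others searched, the PU.1-type motif AGGAAG occurs in 29.5% of these windows and the C/EBP-type motif TTGCNNAA in 9.56%. The T-box-type motif TCACAC occurs in 12.3%, the nuclear receptor motif AGGTCA in 14.0% and the motif AGATAA, bound by factors such as GATA3, in 9.99%. The shown stretches are shorter than those windows. A match is a description of letters only.

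Within classes, 52 ratios of *Postn*-DTR over WT could be formed, and 14 of them were past 2-fold, 6 higher and 8 lower in *Postn*-DTR. Over all genes tested, the share past 2-fold in either direction ran from 5.28% to 17.5% between classes and is given below for each. *Ccr2* was lower in 13 of 14 classes and *Cx3cr1* in 3 of 3, with the counting interval below 0 in 8 and 3 of them. The median log2 ratio of all genes was also below 0 in most of these classes, between -0.13 in monocytes and 0.06 in mature neutrophils. Among cells of 2000 to 8000 UMIs, *Ccr2* was lower in 10 of the 13 classes that gave a ratio, with values of 0.03, 0.04 and 0.02 in non-naive CD4 T, CD8 T and NKT-like cells. *Ccr1* was higher in 4 of 6 classes, all 4 with an interval above 0. *Cxcr6* was lower in 6 of 8 classes and *Ccr8* higher in 4 of 5. *Cxcr3* and *Ccr4* had no common direction, at 6 of 9 and 2 of 4 classes higher. Since all classes come from the same pair of libraries, these counts are not independent of each other.

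**Figure D3:**
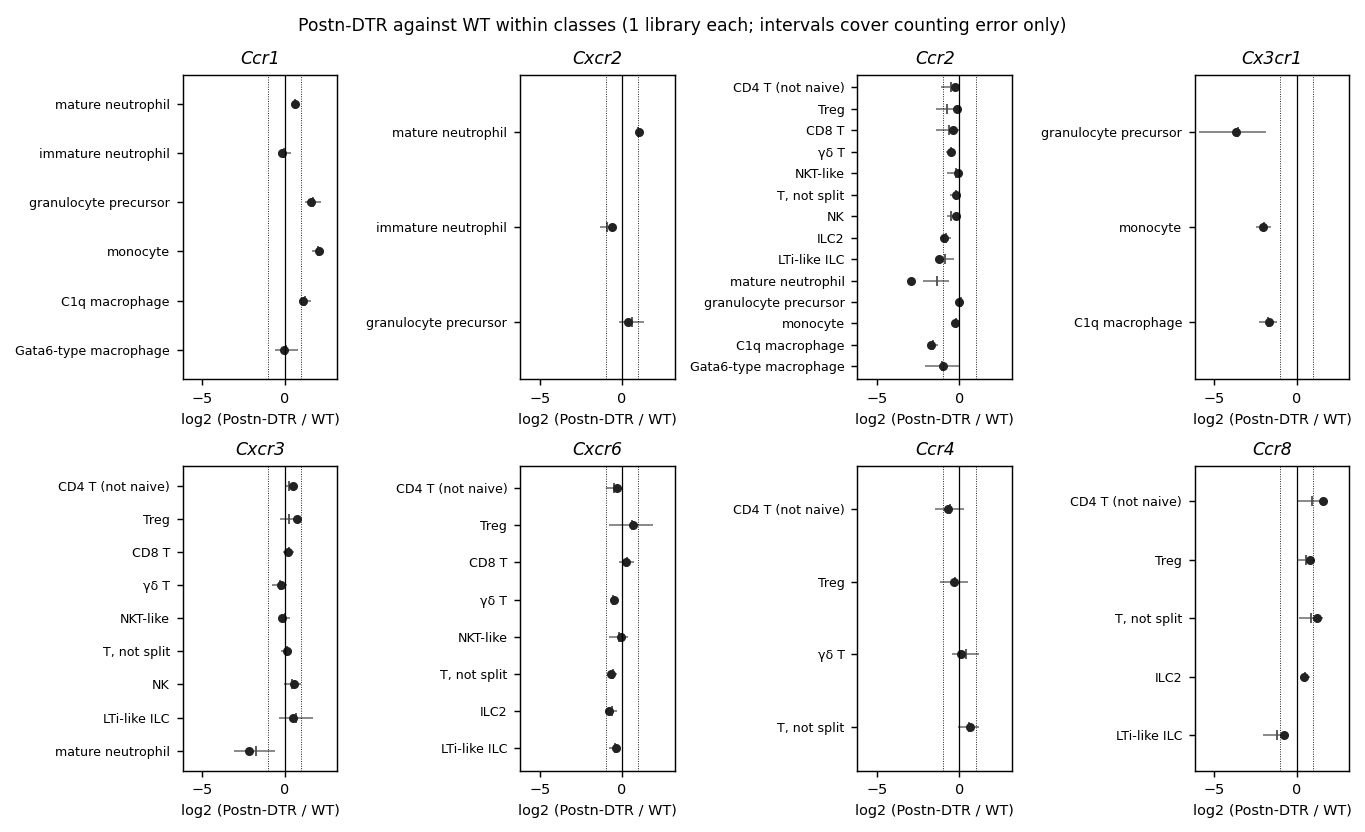
Log2 ratio of *Postn*-DTR over WT for 8 receptor genes (panels) in each class that allowed one (rows). Points are ratios of mean levels, horizontal lines are 95% counting intervals of the ratio of summed UMIs with a tick at that ratio, and dotted lines mark 2-fold. All *Ccr2* points but that of granulocyte precursors lie left of 0, and the *Ccr1* points of monocytes, precursors and C1q macrophages lie beyond the right dotted line.

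*Cxcr2*, the receptor through which neutrophils answer CXCL1 and CXCL2, was followed first in the neutrophil series. In granulocyte precursors, the cells with primary granule genes, its level was 0.0912 UMIs per 10000 for WT and 0.117 for *Postn*-DTR (24 and 48 UMIs). It was 1.81 and 1.17 in immature neutrophils, the cells with secondary granule genes (106 and 112 UMIs), and 4.07 and 8.18 in mature neutrophils (632 and 1714 UMIs). In both libraries the order thus ran from precursor to mature cell. The ratio was 1.01 on the log2 scale in mature neutrophils (0.85 to 1.12) and -0.63 in immature ones (-1.32 to -0.53), and in precursors the interval spanned 0 (-0.16 to 1.35).

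The value in mature neutrophils sat at the 2-fold limit and moved with the depth of the cells. Among cells with 2000 to 8000 UMIs (75 in WT, 442 in *Postn*-DTR) *Cxcr2* was at 6.42 and 8.97, a log2 ratio of 0.48 (0.22 to 0.63). The *Postn*-DTR class also held more cells without a UMI of the granule genes *Ltf*, *Camp* or *Ngp*, 36.8% against 11.4% in WT. Deeper cells more often hold such a UMI, and after thinning to 1000 UMIs the shares without one were 46.7% (42.8 to 50.6) and 14.4% (9.9 to 19.9). *Cxcr2* was higher in *Postn*-DTR on both sides of that division, at 6.08 against 3.63 in cells with such a UMI and at 11.8 against 7.56 in those without. Thinned to 1000 UMIs, 24.9% (WT, 19.2 to 31.3) and 46.5% (*Postn*-DTR, 42.6 to 50.5) of mature neutrophils kept a *Cxcr2* UMI. Unthinned the shares were 81.5% and 79.2%, and in B cells they were 0.0718% and 0.209%.

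*Ccr1*, a receptor for CCL3 and CCL5 found on neutrophils, monocytes and macrophages, was at 2.76 in WT and 4.33 in *Postn*-DTR mature neutrophils (476 and 999 UMIs). The log2 ratio was 0.65 (0.45 to 0.77). In the depth window the ratio was 0.22, with an interval that reached below 0 (-0.04 to 0.50). In immature neutrophils *Ccr1* was at 1.57 and 1.38, with no difference beyond counting error (-0.38 to 0.37). In granulocyte precursors it was at 0.147 and 0.441, a log2 ratio of 1.58 (1.24 to 2.22). Over all cells of each class, the 2 receptors differed among neutrophil stages. In *Postn*-DTR *Ccr1* was higher in precursors and mature cells, in the latter not beyond counting error within the depth window. *Cxcr2* was higher in mature cells but lower in immature ones. Of the 4 receptors compared in mature neutrophils, 1 was past 2-fold higher and 2 lower, against 16.7% of all genes tested past 2-fold in either direction. In immature neutrophils 0 of 2 were past it (11.5% of all genes) and in precursors 2 of 4 (5.28%), *Ccr1* and *Cx3cr1*. The latter was at 0.0847 and 0.00649 in precursors, on 27 and 3 UMIs.

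The other receptors past 2-fold in mature neutrophils, *Ccr2* and *Cxcr3*, rested on few cells. *Ccr2* had 42 UMIs in 10 WT cells and 22 in 6 *Postn*-DTR cells, and *Cxcr3* had 22 in 8 and 9 in 2. Summed T cell markers in the same class were at 0.790 (WT) and 0.160 (*Postn*-DTR) UMIs per 10000. With cells holding T or B cell markers left out, 10 ratios past 2-fold in neutrophil, monocyte and macrophage classes gave a value. Of these 8 stayed past 2-fold, and those that fell below were *Cxcr2* in mature neutrophils and *Ccr2* in *Gata6*-type macrophages. Ratios with no UMI left in 1 library gave no value and are not counted. After thinning, *Ccr2* remained in 1.44% of WT and 0.155% of *Postn*-DTR mature neutrophils, against 0.505% and 0.105% of B cells. The *Cxcr3* share, 0.478% and 0.309%, was at the level of that in B cells, 0.361% and 0.421%, and is read as background.

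**Figure D4:**
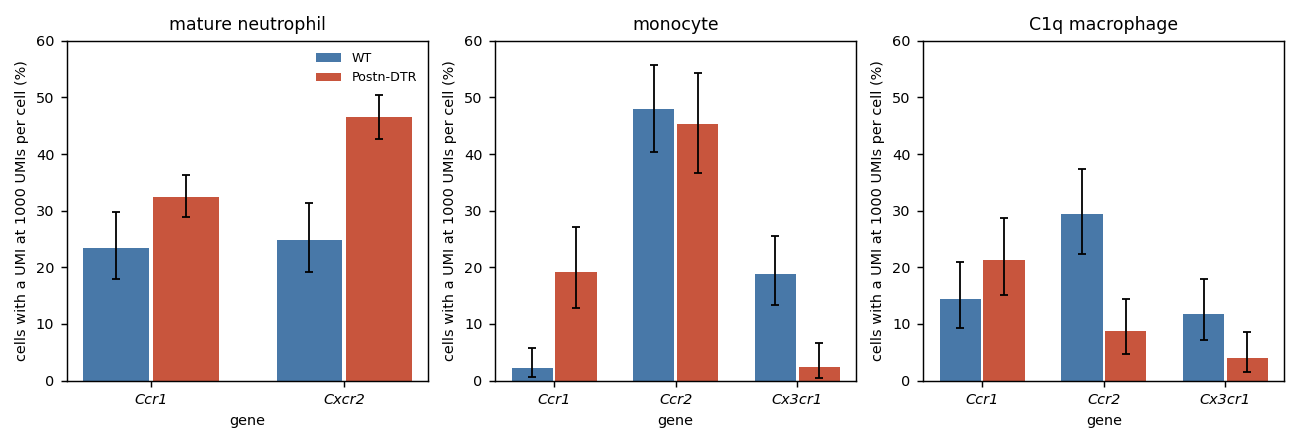
Percent of cells with a UMI of the gene after thinning each cell to 1000 UMIs (y axis), in mature neutrophils, monocytes and C1q macrophages of WT (blue) and *Postn*-DTR (red). Bars start at 0 and lines are exact 95% binomial intervals for counting error. In monocytes the *Ccr1* bar stands at 2.29% in WT and 19.2% in *Postn*-DTR, and the *Cx3cr1* bar at 18.9% and 2.31%, while the *Ccr2* bars overlap.

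Monocytes showed opposite values for *Ccr1* and *Cx3cr1* with little difference in *Ccr2*. *Ccr2*, which lets monocytes leave the bone marrow towards CCL2, was at 8.47 in WT and 7.03 in *Postn*-DTR monocytes (1621 and 881 UMIs), a log2 ratio of -0.27 (-0.35 to -0.11). The median ratio of all genes in this class was -0.13. *Cx3cr1*, which binds membrane-tethered CX3CL1 and marks patrolling monocytes and many tissue macrophages, was at 1.84 and 0.452 (318 and 50 UMIs), a log2 ratio of -2.03 (-2.48 to -1.58). *Ccr1* was at 0.456 and 1.94 (98 and 255 UMIs), a log2 ratio of 2.09 (1.69 to 2.38). Of these 3 receptors 1 was past 2-fold higher and 1 lower, against 11.1% of all genes in either direction.

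*Cx3cr1* is higher in patrolling than in classical monocytes, so the class was divided by a UMI of *Ace* or *Treml4*, genes of patrolling monocytes. Cells with one made up 37.1% of WT and 23.8% of *Postn*-DTR monocytes, and after thinning the shares without one, 83.4% and 90%, had overlapping intervals. *Cx3cr1* was lower in *Postn*-DTR on both sides, at 1.0 against 2.07 in cells with such a UMI and at 0.281 against 1.71 in cells without. *Ccr1* was higher on both sides, at 1.04 against 0.232 and at 2.22 against 0.588. Between 2000 and 8000 UMIs per cell, the log2 ratios were -1.37 for *Cx3cr1* and 1.96 for *Ccr1*.

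Summed neutrophil markers stood at 3.22 (WT) and 27.4 (*Postn*-DTR) UMIs per 10000 in monocytes. Among monocytes with under 5 UMIs of *S100a9* per 10000, 173 in WT and 111 in *Postn*-DTR, *Ccr1* kept a log2 ratio of 2.03 (1.61 to 2.34) and *Cx3cr1* of -1.83 (-2.25 to -1.35). The thinned *Ccr1* share of WT monocytes, 2.29% (0.626 to 5.75), was not above the 3.1% of WT B cells, whereas the 19.2% of *Postn*-DTR monocytes (12.8 to 27.1) stood above the 1.26% of *Postn*-DTR B cells. In T and NK classes of WT the thinned *Ccr1* share ran from 0 to 0.811%, so that the B cell value is not a level common to all cells.

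C1q macrophages, the cells with macrophage and complement C1q genes, held the same 3 receptors. *Ccr2* was at 4.27 (WT) and 1.30 (*Postn*-DTR), from 614 and 114 UMIs, a log2 ratio of -1.72 (-1.88 to -1.29). *Cx3cr1* was at 1.48 and 0.457 (214 and 36 UMIs), a log2 ratio of -1.70 (-2.27 to -1.20). *Ccr1* was at 1.34 and 2.86 (133 and 174 UMIs), a log2 ratio of 1.09 (0.91 to 1.58). All 3 were past 2-fold, 1 higher and 2 lower, against 13.9% of all genes in the class.

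The class differed in its makeup. Cells with at least 20 UMIs of *H2-Ab1*, an MHC class II gene, per 10000 made up 72.5% of WT and 28.3% of *Postn*-DTR C1q macrophages. Within these cells *Ccr2* was at 5.50 and 2.81, and below that limit at 1.03 and 0.700, so that both ratios were smaller than that of the whole class. *Cx3cr1* was at 1.89 and 0.590 in the *H2-Ab1*-high cells. In the *H2-Ab1*-low cells it was at 0.385 and 0.404, with no difference beyond counting error (-0.93 to 1.30). *Ccr1* was higher in *Postn*-DTR on both sides, at 2.03 against 1.2 and at 3.19 against 1.71. Within the depth window the ratios of *Ccr2* and *Ccr1* were -0.98 and 0.88, both under 2-fold, and that of *Cx3cr1* was -1.29.

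Macrophages with *Gata6* and other peritoneal genes carried little of either *Ccr2* or *Cx3cr1*. *Ccr1* was at 1.33 and 1.29 in the 23 WT and 106 *Postn*-DTR cells, with an interval from -0.56 to 0.82. *Ccr2* was at 0.482 and 0.241 on 14 and 23 UMIs, 1 of 2 receptors at the 2-fold limit against 17.5% of all genes. The interval reached 0 (-2.07 to 0.02).

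Among dendritic cells, *Xcr1*, the receptor by which cDC1 find XCL1 from NK and CD8 T cells, was described in cDC1 with fewer than 20 *Postn*-DTR cells. Its level was 2.95 in 142 WT and 1.02 in 17 *Postn*-DTR cells (906 and 32 UMIs), a log2 ratio of -1.53 on the levels and of -1.17 on summed UMIs (-1.72 to -0.66). After thinning the shares were close, 25.5% and 25%, so no direction is read from this gene. *Ccr2* was at 2.23 and 2.46 in the same cells, and *Cxcr3* at 0.825 and 0.677. Type 2 dendritic cells carried *Ccr2* at 3.11 and *Cx3cr1* at 0.807 in WT, with 9 cells in *Postn*-DTR. In plasmacytoid dendritic cells *Cxcr3* was at 0.557 in 59 WT cells and 1.63 in 16 *Postn*-DTR cells, on 28 and 20 UMIs.

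Among the lymphocyte classes, γδ T cells of the IL-17 type most often held several receptors. *Cxcr6*, a receptor for CXCL16 on tissue-resident and effector lymphocytes, was at 10.2 (WT) and 7.16 (*Postn*-DTR), from 2051 and 226 UMIs, a log2 ratio of -0.51 (-0.75 to -0.35). *Ccr2* was at 5.72 and 4.06, a log2 ratio of -0.49 (-0.80 to -0.26). The median of all genes in the class was -0.11. *Cxcr3* was at 1.77 and 1.49 and *Ccr4* at 0.379 and 0.414, both within counting error. None of the 4 was past 2-fold, against 14.5% of all genes. In the cells with a UMI of *Trgv6*, the V segment of the fetal-wave IL-17 type, *Cxcr6* was at 11.2 and 9.18. In those without it was at 7.83 and 3.44, the latter from 18 cells.

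ILC2, the innate source of type 2 cytokines, shared *Cxcr6* and *Ccr2* with γδ T cells and added *Ccr8*. *Cxcr6* was at 5.53 in WT and 3.18 in *Postn*-DTR (log2 ratio -0.80, -0.87 to -0.30), and its thinned share was 41.8% (32.9 to 51.1) and 17.4% (11.4 to 25). *Ccr2* was at 5.70 and 3.01 (log2 ratio -0.92, -1.12 to -0.53). *Ccr8*, the receptor for CCL1 typical of type 2 lymphocytes and Treg cells, went the other way, at 3.6 and 4.91 (180 and 230 UMIs, log2 ratio 0.45, 0.23 to 0.81). Its thinned share was 18% (11.7 to 26) and 34.1% (26.1 to 42.8). None of the 3 was past 2-fold, against 10.3% of all genes. ILC2 held 27.8% of the WT and 66.3% of the *Postn*-DTR *Ccr8* UMIs in typed cells.

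LTi-like ILC, an ILC class set by its own markers, carried *Cxcr6* at 5.28 in WT and 4.11 in *Postn*-DTR. *Ccr2* was at 2.62 and 1.10 (80 and 36 UMIs), a log2 ratio of -1.26 on the levels and of -0.89 on summed UMIs (-1.5 to -0.30). *Ccr8* was at 1.56 and 0.928 on 59 and 21 UMIs (log2 ratio -0.75, -2.02 to -0.49), opposite to its value in ILC2, and the difference between the classes was not tested. *Ccr2* was the 1 receptor of 4 past 2-fold, against 7.43% of all genes. NK cells carried *Ccr2* at 4.43 and 3.88, *Cxcr3* at 0.702 and 1.03, and in WT *Cx3cr1* at 0.252. None of the 2 compared in NK cells was past 2-fold, against 6.32% of all genes.

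*Cxcr3* was followed across the T cell classes. It binds the interferon-induced chemokines CXCL9 and CXCL10 and marks type 1 effector cells. In non-naive CD4 T cells *Cxcr3* was at 2.67 in 664 WT cells and 3.73 in 82 *Postn*-DTR cells (900 and 122 UMIs), a log2 ratio of 0.48, whose counting interval began at 0.00 (to 0.56). It was at 2.26 and 2.04 in NKT-like cells, at 1.61 and 1.83 in CD8 T cells and at 1.23 and 2.05 in Treg cells, and each of these intervals held 0. In naive CD4 T cells of WT it was at 0.151. Thinned shares in non-naive CD4 T cells were 22.0% (18.9 to 25.3) and 27.2% (17.9 to 38.2), against 0.478% and 0.309% in mature neutrophils.

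*Cxcr3* in non-naive CD4 T cells depended on which cells were taken. In those without a UMI of *Gata3* or *Il1rl1*, genes of type 2 T cells, it was at 2.78 and 4.79 (log2 ratio 0.79, 0.17 to 0.83). In those with one it was at 2.47 and 2.07, within counting error. Summed plasma cell markers stood at 2.20 (WT) and 9.70 (*Postn*-DTR) UMIs per 10000 in this class, and their part in these values was not tested. *Cxcr6* in this class was at 1.28 and 1.03 and *Ccr2* at 0.924 and 0.763.

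*Ccr4* and *Ccr8*, receptors of type 2 and regulatory T cells, were low. *Ccr4* was at 0.790 in WT and 0.638 in *Postn*-DTR Treg cells and at 0.426 and 0.267 in non-naive CD4 T cells, and all 4 of its ratios had intervals that held 0. *Ccr8* was at 1.37 and 2.36 in Treg cells (182 and 46 UMIs, log2 ratio 0.78, 0.04 to 1.01). It was at 0.166 and 0.510 in non-naive CD4 T cells, where the *Postn*-DTR value came from 15 UMIs (log2 ratio 1.62, with an interval of -0.004 to 1.72). In T cells not assigned to a subset it was at 0.196 and 0.466 on 79 and 22 UMIs (log2 ratio 1.25, 0.14 to 1.59). Neither of the latter was past 2-fold by summed UMIs. Summed neutrophil markers in the unassigned T cells stood at 0.411 (WT) and 12.7 (*Postn*-DTR) UMIs per 10000, and their part in this value was not tested. The *Ccr8* share of Treg cells depended on the thinning. It was 10.0% in WT and 7.84% in *Postn*-DTR at 1000 UMIs, with overlapping intervals, but 15.4% (11.0 to 20.7) and 37.0% (23.2 to 52.5) at 2000 UMIs, and 24.8% and 41.2% unthinned.

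Among T cell classes, receptors past 2-fold were 1 of 5 in non-naive CD4 T cells (13.5% of all genes), 0 of 5 in Treg cells (13.9%), 0 of 3 in CD8 T cells (10.2%), 0 of 3 in NKT-like cells (8.61%) and 1 of 5 in T cells not assigned to a subset (10.3%). In CD8 T cells *Cxcr6* was at 0.806 in WT and 0.943 in *Postn*-DTR. *Ccr2* in CD8 T cells was at 0.532 and 0.414.

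Receptors were also counted together in single cells. Without thinning, 45.4% of WT γδ T cells held UMIs of 3 or more of the 9 genes and 0.541% held none. The *Postn*-DTR values were 49.0% and 1.96%. Thinned to 2000 UMIs, 62.1% of WT and 49.0% of *Postn*-DTR γδ T cells held 2 or more, and 6.54% and 13.7% held none. Unthinned, 62.0% of WT cDC1 held 3 or more, and after that thinning 20.9% held 2 or more. Few NK cells held 3 or more unthinned, 0.341% in WT and 0.952% in *Postn*-DTR. In WT non-naive CD4 T cells *Ccr2* and *Cxcr6* met in 83 unthinned cells, where the product of their shares gives 37.1. Thinned to 1000 UMIs they met in 14 where it gives 4.41, and thinned to 2000 UMIs in 26 where it gives 13.4. In WT γδ T cells, where most cells held both, they met in 310 unthinned cells against 307. *Ccr4* and *Cxcr3* met in 40 unthinned non-naive CD4 T cells of WT, below the 53.2 from their shares. In *Postn*-DTR mature neutrophils *Ccr1* and *Cxcr2* met in 122 cells thinned to 1000 UMIs against 97.7, and in 195 thinned to 2000 UMIs against 163. Deeper cells hold more of every gene, which raises unthinned counts of pairs.

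The library as a whole combined the levels in classes with the number of cells in each. Over all typed cells, *Cxcr2* was at 0.122 in WT and 1.08 in *Postn*-DTR, which is 3.15 on the log2 scale. With WT levels and the *Postn*-DTR class shares the log2 ratio would be 2.25, and with *Postn*-DTR levels and the WT shares 0.90. For *Ccr1* the same 3 values were 1.70, 1.17 and 0.22. B cells, where *Ccr1* was at 0.314 in WT and 0.124 in *Postn*-DTR, held 48.3% of its WT UMIs in typed cells. Without B and plasma cells the 3 values for *Ccr1* were 2.98, 2.33 and 0.83. Mature neutrophils made up 2.44% of WT and 11.6% of *Postn*-DTR cells.

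*Cx3cr1* was the reverse case, at -1.79 over all typed cells, 0.01 from the class shares and -1.29 from the levels. For *Cxcr3*, *Ccr4* and *Cxcr6* the value from the class shares was the further from 0. *Cxcr3* was at -1.60, with -1.78 from the shares and 0.22 from the levels, *Ccr4* at -1.74, -1.54 and 0.04, and *Cxcr6* at -1.93, -1.30 and -0.51. *Ccr2* was at -1.21, -0.61 and -0.34, *Xcr1* at -3.96, -2.23 and -1.54, and *Ccr8* at 0.19, -0.19 and 0.66. Shares of 1 library sum to 100%, so a larger share of plasma cells, 36.4% of *Postn*-DTR against 6.15% of WT cells, leaves less for the other classes together. Some single classes still had a larger share in *Postn*-DTR, such as mature neutrophils (2.44% in WT and 11.6% in *Postn*-DTR) and ILC2 (1.41% and 2.30%).

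**Figure D5:**
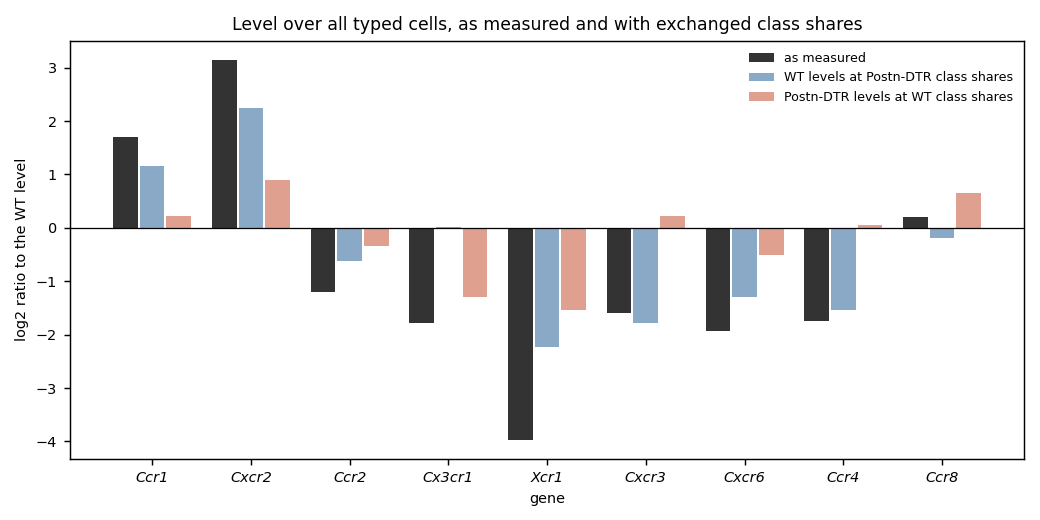
Log2 ratio to the WT level over all typed cells (y axis) for each gene, as measured in *Postn*-DTR (black), with WT levels at the *Postn*-DTR class shares (blue) and with *Postn*-DTR levels at the WT class shares (red). For *Cxcr3* and *Ccr4* the blue bar is close to the black one, for *Cx3cr1* the red bar is the larger of the pair.

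The genes with the most similar pattern were named by Pearson's r of log2 (level + 0.05) over 35 class and library points, among 10170 genes with at least 200 UMIs, class markers left out. The points share libraries and related cells, so r describes these points only. *Cxcr2* was most like *Il1f9* (r = 0.996), *Phospho1* (0.98) and *9830107B12Rik* (0.98). *Ccr1* was most like *C5ar1* (0.97), the receptor for complement C5a, *Fgd4* (0.96) and *Cd33* (0.95), and *Xcr1* most like *Gpr141b* (0.97), *Gcsam* (0.96) and *Snx22* (0.94). *Postn*-DTR cDC1, at 17 cells, are not among the points, so the *Xcr1* values rest mainly on the single point of WT cDC1. *Ccr8* was most like *Ptpn13* (0.94), *Cish* (0.87) and *Bmp7* (0.87), and *Cxcr6* like *St6galnac3* (0.91), *Tnfrsf25* (0.90) and *Podnl1* (0.89). *Ccr4* was most like *Cpm* (0.90), *Rln3* (0.89) and *Acsbg1* (0.87), and *Cxcr3* like *Rab19* (0.89), *Kbtbd11* (0.89) and *Rnf138* (0.88). *Ccr2* had the lowest best match, *Tgfb1* (0.82), followed by *Ahnak* (0.78) and *Prkx* (0.75). *Cx3cr1* was most like *Clec4b1* (0.85), *Hpgd* (0.82) and *Gm15987* (0.81). Among the receptors themselves, r was highest between *Ccr4* and *Cxcr6* (0.72) and lowest between *Ccr1* and *Cxcr3* (-0.79).

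The ligands of these receptors were compared in the same classes. Of 22 ligand genes listed, 11 could be compared in mature neutrophils. Of these, 7 were past 2-fold higher and 2 lower in *Postn*-DTR, and their median log2 ratio was 1.33 against 0.06 for all genes, also with the 3 ligands at 0 in 1 library set to a floor of 3 counts per library. Of all genes in the class 16.7% were past 2-fold in either direction. The 7 include *Ccl9*, whose counting interval held 0 (-0.26 to 1.88), and *Cxcl1*, which was lower by summed UMIs (-0.53, on 21 and 20 UMIs). *Cxcl2*, a ligand of CXCR2, was at 15.3 in WT and 38.6 in *Postn*-DTR, and *Ccl6*, a ligand of CCR1, at 9.22 and 37.6. *Ccl5* had 311 UMIs in WT and none in *Postn*-DTR mature neutrophils. Its level was highest in NK cells, at 166 in WT and 167 in *Postn*-DTR. Summed T cell markers in mature neutrophils stood at 0.790 (WT) and 0.160 (*Postn*-DTR) UMIs per 10000, and their part in the *Ccl5* value was not tested. Depth also differed between mature neutrophils of WT and *Postn*-DTR, as stated above.

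In monocytes 1 of 9 ligands was past 2-fold higher and 3 lower, against 11.1% of all genes in either direction. *Ccl2*, the main ligand of CCR2, was at 0.815 in WT and 2.45 in *Postn*-DTR, and *Ccl5* at 1.56 and 0.0238. Summed T cell markers in monocytes stood at 0.262 and 0 UMIs per 10000, and their part in the *Ccl5* value was not tested. In C1q macrophages 3 of 14 were higher, *Ccl3* (0.997 and 3.94), *Ccl4* (2.19 and 7.75) and *Ccl12* (0.170 and 2.09), and 1, *Cxcl10*, was lower (0.914 and 0.367), against 13.9% of all genes in either direction. By summed UMIs the *Cxcl10* ratio was -0.11, with an interval that held 0 (-0.58 to 0.34). In ILC2 *Ccl1*, the ligand of CCR8, was at 1.22 and 0.384, whereas in non-naive CD4 T cells it was at 0.0715 and 1.06, on 51 UMIs in 4 cells and 57 UMIs in 3 cells. *Xcl1* in NK cells was at 7.03 and 2.6. In γδ T cells *Ccl5* was at 2.6 in WT and 0.0941 in *Postn*-DTR (838 and 3 UMIs). Over all typed cells *Ccl5* was at 20.7 and 7.07, and the part of other cells in the γδ T value was not tested. Of all genes, 10.3% were past 2-fold in either direction in ILC2, 13.5% in non-naive CD4 T, 6.32% in NK and 14.5% in γδ T cells.

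Other receptors and shared signalling genes were measured in the same cells. Of 14 other chemokine or migration receptors, *Ccrl2*, a receptor that holds chemerin at the surface, was at 1.56 in WT and 3.44 in *Postn*-DTR mature neutrophils and at 1.65 and 0.524 in monocytes. *Cxcr4* was at 1.52 and 3.08 in C1q macrophages. In non-naive CD4 T cells *Ccr7*, the receptor for entry into lymphoid tissue, was at 1.76 and 0.843, and 3 of the 7 compared there were past 2-fold lower, against 13.5% of all genes in either direction. In Treg cells *S1pr1*, the receptor for exit, was at 1.90 and 0.854, and *Ccr3* had 55 UMIs in WT and none in *Postn*-DTR. Of 13 signalling genes downstream of the receptors, such as *Gnai2*, *Dock2* and *Rac2*, 12 could be compared in mature neutrophils, monocytes, C1q macrophages and γδ T cells, and 0 were past 2-fold there. Of all genes in these classes 16.7%, 11.1%, 13.9% and 14.5% were past it. Over all classes 8 of 180 ratios of the signalling genes were past it, 4 higher and 4 lower, against 5.28% to 17.5% of all genes by class. Among them were *Arrb1* in non-naive CD4 T cells (0.166 and 0.0736) and *Rgs16* in Treg cells (0.334 and 0.127), both with intervals that held 0. Others had intervals without 0, such as *Rgs1* in immature neutrophils (0.285 and 0.0224, -4.62 to -1.99) and *Arrb2* in LTi-like ILC (0.970 and 2.11, 0.40 to 1.75). In granulocyte precursors *Arrb2*, an arrestin that ends receptor signalling, was at 1.1 and 2.27.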

How the data were processed

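Omental cells of WT and *Postn*-DTR mice, 1 library each, were profiled 5 days after DT. The deposited values are on a natural log scale: UMIs of each gene were scaled by the authors to 10000 per cell, and 1 was added before the log. Per the labels a 5′ kit, Cell Ranger 6.0.0 and the build mm10 were used, whereas the study's methods name a 3′ kit and another Cell Ranger version. Cells with 200 to 7500 genes and at most 25% mitochondrial UMIs were kept. Values were taken back to the linear scale, and UMIs were recovered as multiples of each cell's smallest step (whole within 0.1 for 99.97% of WT and 99.91% of *Postn*-DTR values).

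Classes needed a share of 0.4 of a type's markers and at least 3, with a lead of 0.15 (0.05 among monocytes, macrophages and dendritic cells), and T cells 3 T cell markers. These thresholds were set after the data were seen. Cells that met no rule, 572 and 468, were left untyped. The receptors, gene lists and markers were chosen with earlier results of these data known. Named are the 9 receptors, the 3 genes most like each, and examples from the listed ligands, other receptors and signalling genes, mainly those past 2-fold in a receptor's main class. Shares have exact Clopper-Pearson intervals, ratios exact conditional binomial ones, all at 95%. UMIs of 1 library are no replicates, so no test was made. Doublets were scored with Scrublet in scanpy 1.11.5 and kept; it marked 2 WT and 106 *Postn*-DTR cells, the former too few to have worked. Python 3.11.15, numpy 2.4.6 and scipy 1.17.1 were used. Alternatives were other scalings, stricter classes, 500 genes, doublets or the highest cell left out, and, chosen after seeing the data, a depth window, cells without T or B markers, and the divisions of classes by *Ace*, *H2-Ab1* and similar genes.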

Additional observations from a re-analysis of the deposited data

Results flagged for a closer look

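*Ccr8*, *Cxcr2* and *Cxcr3* had ratios of opposite direction in different classes, each with a counting interval on its own side of 0. None of these differences between classes was tested, since there was 1 library per group. *Ccr8* was higher in *Postn*-DTR in Treg cells (log2 ratio 0.78), T cells not assigned to a subset (1.25) and ILC2 (0.45), and lower in LTi-like ILC (-0.75). *Cxcr2* was higher in mature neutrophils (1.01) and lower in immature neutrophils (-0.63), and median depth in *Postn*-DTR was 3288 and 6849 UMIs against 9686 and 9823 in WT. *Cxcr3* was higher in non-naive CD4 T cells (0.48) and lower in mature neutrophils (-2.20), the latter on 22 and 9 UMIs at a share read as background.

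Signal was also found in cells outside the T, NK, ILC and myeloid classes. *Ccr1* had a UMI in 17.0% of WT B cells (15.6 to 18.4) and in 7.11% of *Postn*-DTR B cells (5.56 to 8.92), at levels of 0.314 and 0.124 UMIs per 10000, and B cells held 48.3% of its WT UMIs in typed cells. *Cxcr3* had a UMI in 4.46% of *Postn*-DTR plasma cells (3.61 to 5.43) and in 5.83% of WT plasma cells (3.99 to 8.17), at levels of 0.0476 and 0.0424. The 2087 *Postn*-DTR plasma cells, with a median of 23604 UMIs, held 287 of the 973 *Cxcr3* UMIs in typed cells of that library. After thinning, 0.577% of *Postn*-DTR plasma cells and 0.421% of *Postn*-DTR B cells kept one, with overlapping intervals.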

How the results depend on the processing

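All 14 ratios past 2-fold kept their direction under every alternative that gave them a value. With summed UMIs 10 of the 14 stayed past 2-fold and 3 ratios in all were past it upwards, against 6. With cells of 2000 to 8000 UMIs, 47 ratios could be formed, 8 of 11 stayed past 2-fold and 5 were past it downwards, against 8. In that window *Ccr2* was lower in 10 of 13 classes, against 13 of 14. There the log2 ratios in mature neutrophils were 0.22 for *Ccr1* and 0.48 for *Cxcr2*, and that of *Cx3cr1* in monocytes was -1.37. With stricter markers 10 of 14 stayed past 2-fold. *Cxcr2* in mature neutrophils also fell below 2-fold by summed UMIs, with a minimum of 500 genes, with stricter markers, relative to the median of all genes and without cells holding T or B cell markers. Relative to that median, *Ccr2* in monocytes was at -0.14. By summed UMIs *Cx3cr1* was highest in C1q macrophages. Without called doublets 14 of 14, and without the 5% of cells with the highest doublet scores 13 of 14, stayed past 2-fold. Without B and plasma cells the log2 ratios over all typed cells were 2.98 for *Ccr1*, -0.73 for *Ccr2*, -1.25 for *Ccr4*, 0.70 for *Ccr8*, -1.32 for *Cx3cr1*, 3.63 for *Cxcr2*, -1.23 for *Cxcr3*, -1.43 for *Cxcr6* and -3.46 for *Xcr1*. No paired analysis was possible because each group is 1 library. The number of *Postn*-DTR T cells, 51 to 122 per class compared, limits the T cell ratios.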
